A study of Mus musculus with 16 samples.

Results

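Collagen genes were the 42 genes of the deposited table whose name consists of Col, a type number, the letter a and a chain number, among 22572 named genes. They were chosen by name alone, and loci that carry the same name were summed. The 42 fall into 11 fibrillar chains, the 6 chains of type IV that build basement membranes, and 25 other chains, of which 8 are FACIT chains (collagens that sit on the surface of fibrils), 6 belong to type VI, 4 are transmembrane, 3 form short-chain networks, 2 are multiplexins and 2 belong to none of these. The levels come from polyadenylated RNA of the hippocampus of male C57BL/6 mice, measured in 16 libraries as FPKM (fragments counted per kilobase of a transcript and adjusted for the size of the library). There were 4 libraries in each of 4 groups: mice with a knockout of the X-linked gene Bgn (written Bgn0/- in the labels, BgnKO here) on fructose, wild-type (WT) mice on fructose, BgnKO mice on regular water and WT mice on regular water. The fructose mice drank a 15% (w/v) solution, and the treatment began at 3 months of age and lasted 6 weeks. Whether the 4 libraries of a group came from separate animals is not in the labels, and p-values therefore reflect only how far these libraries vary, which may be technical.

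A collagen molecule is a triple helix of chains, either copies of the same chain or a fixed mixture, that is secreted and then assembled into fibrils, networks or filaments. In brain, fibrillar collagens are found mainly in the meninges and vessel walls, type IV collagen lies in the basement membranes of the vessels, and a few chains such as collagen XIX and collagen XXV are made by neurons. Biglycan, the product of Bgn, is a small leucine-rich proteoglycan that binds type I and type VI collagen.

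Bgn had 5.02, 6.69, 6.73 and 7.11 FPKM in replicates 1 to 4 of BgnKO on fructose, against 5.42, 20.7, 21.2 and 17.2 FPKM in WT on fructose. On water it had 4.46, 7.23, 7.19 and 7.60 FPKM in BgnKO and 9.94, 11.7, 17.7 and 24.2 FPKM in WT. Bgn was thus lower in BgnKO but not listed at 0, and replicate 1 of WT on fructose lay inside the BgnKO range. That library is called WT here by its label. Between 12343 and 12885 named genes reached 1 FPKM in a library, and the number of reads behind a value is not known. Markers of hippocampal excitatory neurons, of which 6 of 7 names were in the table, summed to 740.3 to 1022 FPKM per library, against 18.0 to 40.1 FPKM for striatal markers. Slc17a7 alone made up most of each sum (506 to 720 FPKM). The sums cannot tell hippocampus from other tissue with excitatory neurons, so the hippocampal label was not checked. Replicate 1 stood apart on fructose. The 42 collagen genes summed to 56.3 FPKM in replicate 1 and 88.9 to 140.1 FPKM in replicates 2 to 4 of BgnKO on fructose, and to 68.3 FPKM in replicate 1 and 85.0 to 93.4 FPKM in replicates 2 to 4 of WT on fructose. On water the sum was 84.3 to 98.8 FPKM in BgnKO and 75.2 to 93.1 FPKM in WT. The labels name no batch. Results that rest on replicate 1 are therefore given with all 16 libraries and with replicates 2 to 4.

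Most collagen genes were scarce in this tissue. The mean over the 16 libraries ran from 0.0338 FPKM for Col10a1, a chain of growth-plate cartilage that was listed at 0 in replicate 4 of both fructose groups, to 12.4 FPKM for Col25a1. A mean of 1 FPKM, the level needed to enter the tests, was reached by 19 of the 42: 5 fibrillar, 2 basement membrane and 12 other chains. The other 23 stayed below it, and 6 of them lay below 0.1 FPKM. Besides Col25a1, the highest means were those of Col9a3 (10.4 FPKM), Col4a2 (8.08 FPKM), Col4a1 (7.45 FPKM) and Col6a1 (6.21 FPKM). Col25a1, a transmembrane collagen of neurons, made up 7.02 to 20.6% of the summed collagen FPKM of a library. The fibrillar chains together took 14.7 to 24.9%, the type IV chains 14.2 to 27.0% and the other chains 53.0 to 65.8%. Type II collagen, the main fibril of cartilage, was nearly absent, with Col2a1 at 0.135 to 0.377 FPKM.

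**Figure D1:**
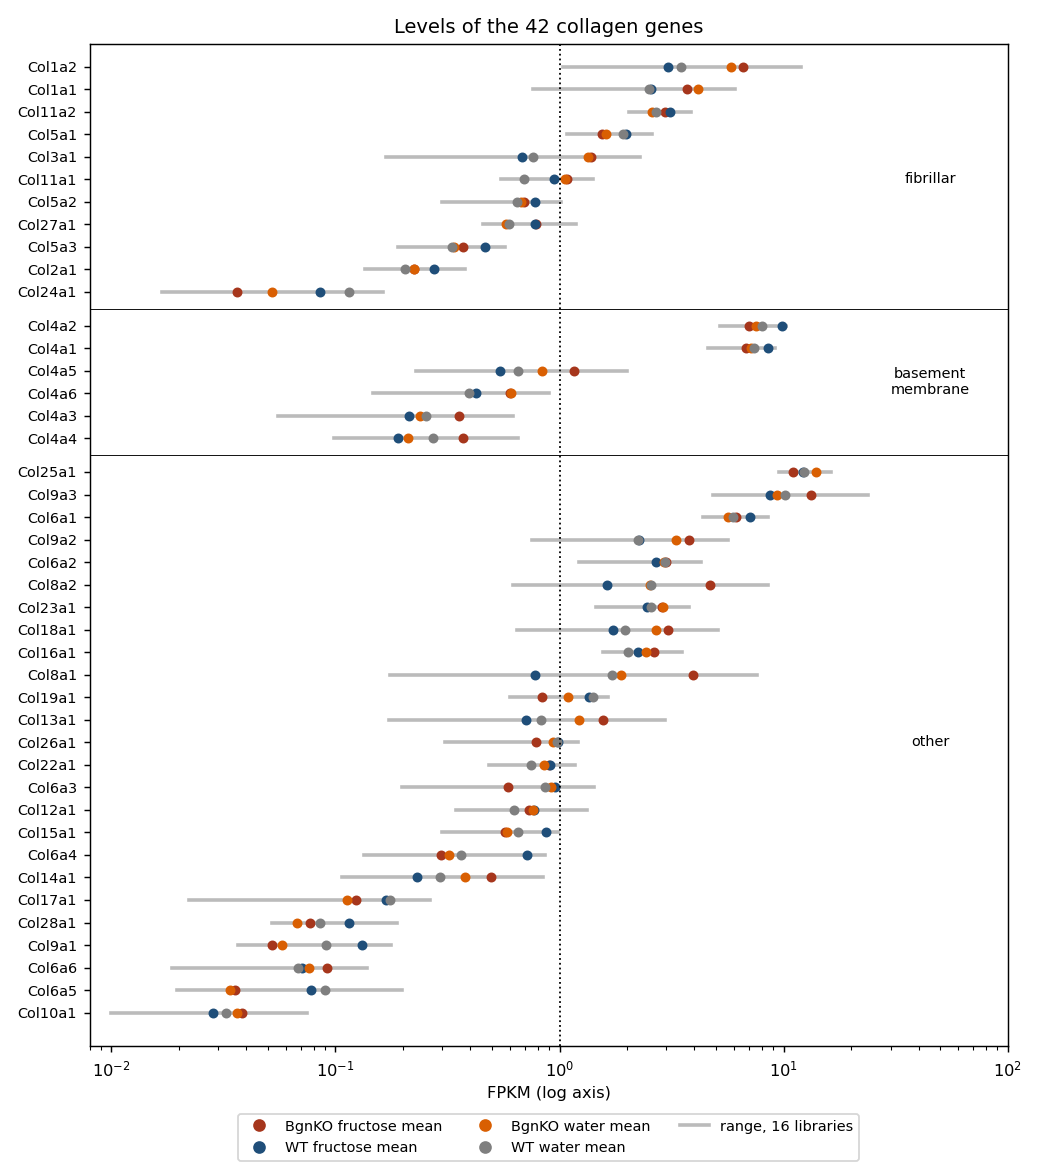
FPKM of the 42 collagen genes on a log axis, ordered within fibrillar, basement membrane and other chains by their mean. Points are the means of the 4 groups (n = 4 each), grey lines span the 16 libraries (a library listed at 0 is drawn at the left end), and the dotted line is the 1 FPKM needed for testing, which 19 genes reached on average.

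The comparison of BgnKO with WT asks how collagen expression differs when biglycan is lost. Each tested gene was fitted with limma on log2(FPKM + 1) together with 12648 tested genes, so folds understate the change of genes near 1 FPKM. On fructose 1 of the 19 tested collagen genes passed an adjusted p of 0.05, against 3.76% of all tested genes, and it was Col19a1, which fell. An unadjusted p under 0.05 was reached by 6 of the 19 on fructose and 6 over both drinks, beside 2691 and 2666 of the 12648 tested genes. On water 0 of 19 passed, against 0.387% of all tested genes. An unadjusted p under 0.05 was reached there by 1 of the 19, beside 674 of all tested genes. Over both drinks 1 of 19 passed, again Col19a1, against 4.99% of all tested genes. The median log2 fold of the 19 was 0.16 on fructose, 0.13 on water and 0.16 over both drinks, beside -0.011, -0.0011 and -0.0052 for all tested genes. By class, the medians over both drinks were 0.42 for the 5 fibrillar chains, -0.22 for the 2 type IV chains and 0.17 for the 12 other chains. These are medians over the members that passed the filter. With no filter the medians over all members of a class were -0.017 for the 11 fibrillar chains, 0.064 for the 6 type IV chains and 0.019 for the 25 other chains, and that over all 42 was 0.014 over both drinks and -0.0067 on fructose, so the medians of the fibrillar and type IV classes and that of all members on fructose changed sign. Over both drinks 13 of the 19 lay higher in BgnKO and 6 lower. With replicates 2 to 4 alone, 6 of 19 passed over both drinks, 4 higher and 2 lower, against 12.6% of all genes tested in those libraries.

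**Figure D2:**
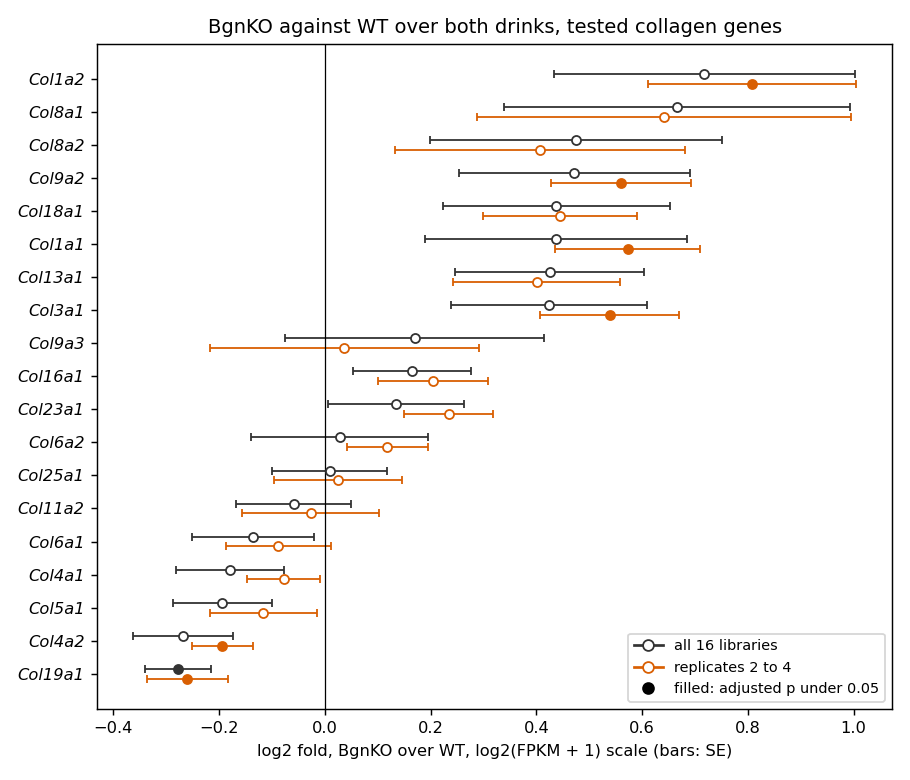
Log2 fold of BgnKO over WT across both drinks for the 19 tested collagen genes, on the log2(FPKM + 1) scale, with bars for the standard error, from all 16 libraries and from replicates 2 to 4. Filled points passed an adjusted p of 0.05 in limma: Col19a1 in both fits, and in replicates 2 to 4 also Col4a2, lower, and Col1a1, Col1a2, Col3a1 and Col9a2, higher.

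Collagen XIX is a FACIT-like chain that in mouse hippocampus is made by interneurons and takes part in the formation of their inhibitory synapses. Col19a1 had 0.927, 0.900, 0.896 and 0.600 FPKM in BgnKO on fructose, against 1.43, 1.36, 1.11 and 1.50 FPKM in WT on fructose. Every BgnKO library lay below every WT library on this drink. It was 1 of 3 tested collagen genes whose groups did not overlap in this direction on fructose, beside 6.43% of all tested genes, and 0 of 19 did so in the other direction, beside 4.61%. On water it had 1.01, 1.12, 1.11 and 1.13 FPKM in BgnKO and 1.53, 1.64, 1.36 and 1.09 FPKM in WT, where replicate 4 of WT lay within the BgnKO range. The mean was 61.7% of WT on fructose, 77.8% on water and 69.9% over both drinks. In limma the log2 fold was -0.36 (SE 0.09, adjusted p = 0.0359) on fructose, -0.20 (SE 0.09, adjusted p = 0.904) on water and -0.28 (SE 0.06, adjusted p = 0.0181) over both drinks. All 8 BgnKO libraries lay below the WT mean of their drink. The call on fructose was lost when 1 of 6 libraries was left out, with an adjusted p of 0.0507 without replicate 2 of BgnKO on water, 0.0639 and 0.116 without replicates 3 and 4 of BgnKO on fructose, and 0.0721, 0.0897 and 0.109 without replicates 1, 2 and 4 of WT on fructose. Over both drinks the call held each time 1 library was left out. It ended with replicates 2 to 4 when replicate 4 of BgnKO on fructose was also left out, a setting chosen after the values were seen (log2 fold -0.22, adjusted p = 0.0900 over both drinks, and -0.29, adjusted p = 0.178 on fructose, where 2.67% of all genes passed).

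Markers of inhibitory neurons, the cells that make collagen XIX, summed to 679, 677, 620.4 and 471 FPKM in BgnKO on fructose and 575, 667, 649 and 627 FPKM in WT on fructose. On water the sums were 763, 685, 736 and 612 FPKM in BgnKO and 709, 572, 712 and 757 FPKM in WT, and 0 of the 6 markers passed the limma test or had an unadjusted p under 0.05 on either drink. Replicate 4 of BgnKO on fructose had the lowest value of the group for both the marker sum and Col19a1. In each of the other groups the library with the lowest sum did not have the lowest Col19a1. Col19a1 was 1.13 FPKM in replicate 4 of BgnKO on water and 1.64 FPKM in replicate 2 of WT on water, the highest of each group. It was 1.43 FPKM in replicate 1 of WT on fructose. Markers of hippocampal excitatory neurons summed to 1005, 796, 827 and 740.3 FPKM in BgnKO on fructose and 1022, 867, 986 and 942 FPKM in WT on fructose. Of these, 6 of 6 tested had a fold below 0 on fructose, with a median log2 fold of -0.32, and 1 fell in limma (Wfs1, a membrane protein of the endoplasmic reticulum, -0.74 (SE 0.12, adjusted p = 0.00346)). An unadjusted p under 0.05 was reached by 4 of the 6 on this drink, beside 2691 of the 12648 tested genes. Over both drinks 6 of 6 again had a fold below 0, with a median of -0.21 and 1 called. The part of either kind of neuron in the Col19a1 values was not tested. In RNA of whole tissue, fewer cells of a type and less RNA per cell cannot be told apart. Col19a1 lies on the minus strand of chromosome 1 at chr1:24261890-24587472 in GRCm38, and 5 other tested genes within 1 Mb of it gave 0 calls on fructose. They do not include Col9a1, 9205 bases from Col19a1, whose mean was too low for testing. With no filter on low FPKM, Col9a1 passed on fructose and over both drinks, also lower in BgnKO. Among the 5, an unadjusted p under 0.05 was reached by 2 in the direction of Col19a1, beside 2691 of the 12648 tested genes in either direction. These were Ogfrl1 with a log2 fold of -0.36 (SE 0.13) and Smap1 with -0.18 (SE 0.08). The promoter window of Col19a1 in RefSeq GRCm38.p6, 250 bases before to 50 bases after the annotated start (chr1:24587388-24587687, minus strand), is shown because the gene was called with all 16 libraries. The window was searched on both strands for 3 motifs. The letters of the CCAAT box, CCAAT, are in 37.4% of the 32851 windows of this length. The letters GGGCGG of the GC box are in 35.7%, and the letters TATAAA of the TATA box in 13.6%. None of the 3 is in the window of Col19a1, so it has no capitals:
Col19a1: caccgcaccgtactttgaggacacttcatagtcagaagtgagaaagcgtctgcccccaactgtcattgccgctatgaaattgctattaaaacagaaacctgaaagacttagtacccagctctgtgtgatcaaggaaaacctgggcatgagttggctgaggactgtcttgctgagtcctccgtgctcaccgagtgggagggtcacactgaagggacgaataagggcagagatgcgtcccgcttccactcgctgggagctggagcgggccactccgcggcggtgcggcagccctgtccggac

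**Figure D3:**
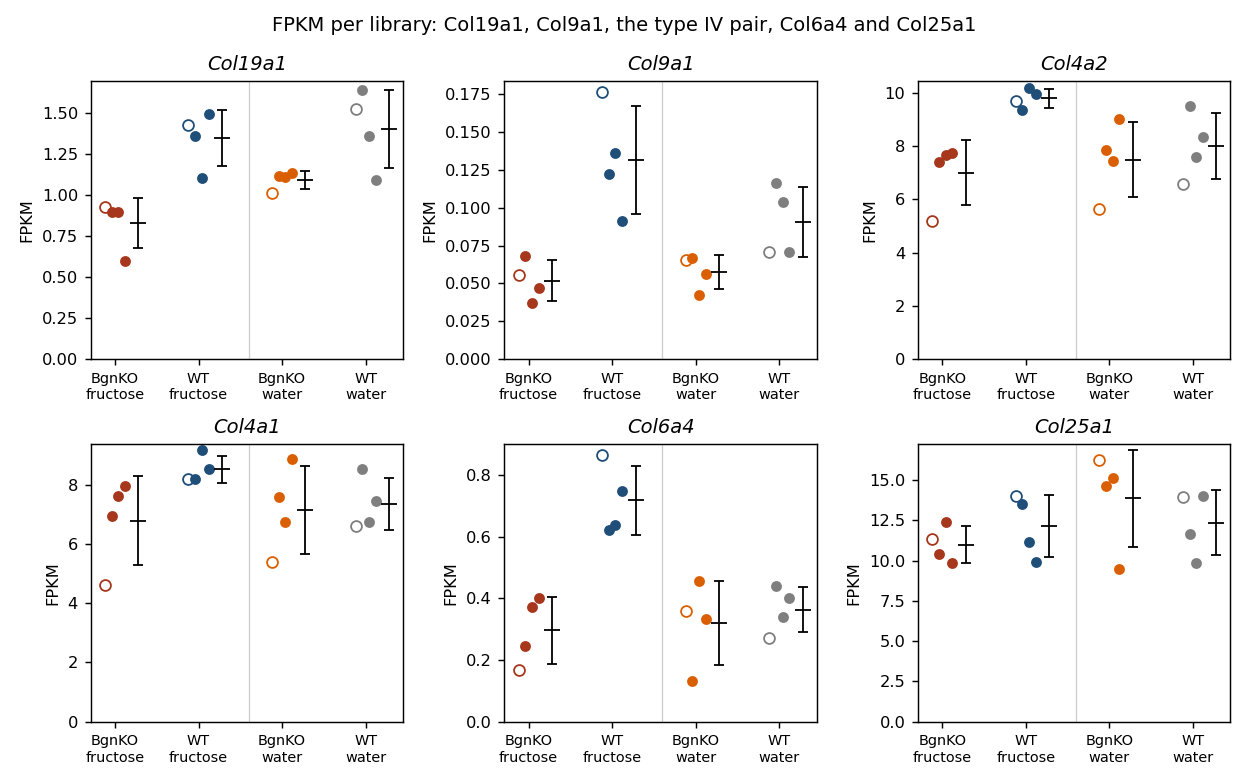
FPKM per library of Col19a1, Col9a1, Col4a2, Col4a1, Col6a4 and Col25a1 in BgnKO and WT, on fructose at left and on water at right. Open points are replicate 1, and bars are mean ± SD (n = 4). On fructose Col19a1, Col9a1, Col4a2, Col4a1 and Col6a4 show BgnKO points below every WT point, and Col25a1 shows overlapping groups.

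The chains α1(IV) and α2(IV) join in a heterotrimer and form the ubiquitous network of basement membranes, in brain chiefly that of vessels. Col4a2 had 5.17, 7.40, 7.68 and 7.74 FPKM in BgnKO on fructose, against 9.69, 9.35, 10.2 and 9.97 FPKM in WT on fructose. Col4a1 had 4.61, 6.96, 7.63 and 7.95 FPKM in BgnKO and 8.20, 8.20, 9.16 and 8.53 FPKM in WT on the same drink. For Col4a2, and for Col4a1 with its loci summed, all 4 BgnKO libraries lay below all 4 WT libraries. Col4a2 on water had 5.64, 7.87, 7.45 and 9.02 FPKM in BgnKO and 6.58, 9.51, 7.59 and 8.35 FPKM in WT. Col4a1 on water had 5.38, 7.58, 6.74 and 8.89 FPKM in BgnKO and 6.62, 8.55, 6.76 and 7.47 FPKM in WT, and for both chains these groups overlapped. Means on fructose were 71.4% of WT for Col4a2 and 79.6% for Col4a1, and on water 93.6% and 97.2%.

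Neither chain passed with all 16 libraries. The log2 fold on fructose was -0.45 (SE 0.13, adjusted p = 0.0711) for Col4a2 and -0.31 (SE 0.14, adjusted p = 0.223) for Col4a1. With a model term for replicate 1, Col4a2 passed at an adjusted p of 0.00498 and Col4a1 at 0.0481, where 17.3% of all tested genes passed. With the replicate number as a block the values were 0.00713 for Col4a2 and 0.0536 for Col4a1, where 19.6% of all tested genes passed. Over both drinks, 3 of 19 collagen genes passed with the term (18.0% of all tested genes) and 4 of 19 with the block (19.8%), Col4a2 and Col19a1 among them each time. With replicates 2 to 4 the log2 fold on fructose was -0.33 (SE 0.08, adjusted p = 0.0299) for Col4a2 and -0.18 (SE 0.10, adjusted p = 0.228) for Col4a1, where 10.9% of all genes passed. Replicate 1 had the lowest value of BgnKO on either drink for both chains. On water the log2 fold of Col4a2 was -0.09 (SE 0.13, adjusted p = 1.00). The interaction of genotype and drink was -0.36 (SE 0.19, adjusted p = 0.999) for Col4a2, so a difference between drinks in the genotype fold was not shown.

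The pair kept nearly the same ratio in every library, with Col4a2 at 0.974 to 1.18 times Col4a1. The endothelial markers, from the main cell type that lays down this network together with pericytes, summed to 68.6, 86.7, 103 and 105 FPKM in BgnKO on fructose and 74.1, 68.0, 83.6 and 73.0 FPKM in WT on fructose, and 8 of 8 had a fold above 0 on this drink, the opposite side from Col4a1 and Col4a2, with 0 called in limma and 1 at an unadjusted p under 0.05. Pericyte and smooth muscle markers summed to 80.8, 154, 194 and 219.7 FPKM in BgnKO on fructose and 83.0, 139.9, 154 and 129 FPKM in WT on fructose, with 0 of 9 called in limma or at an unadjusted p under 0.05. The part of these cells in the type IV values was not tested. Both genes start head to head on chromosome 8 of GRCm38, Col4a1 on the minus strand (chr8:11198423-11312826) and Col4a2 on the plus strand (chr8:11312805-11449287), so their annotated first exons overlap by 22 bases. The sources used here do not give the strand setting of the counting, and reads from these bases cannot be told apart. A smaller second Col4a1 locus held 1.44 to 7.43% of the FPKM of the gene. At the larger locus alone, replicate 4 of BgnKO on fructose had 7.78 FPKM and replicate 1 of WT on fructose 7.59 FPKM. The fructose groups thus overlapped there, and the separation of Col4a1 holds only for the sum. The RefSeq GRCm38.p6 promoter windows of the pair (chr8:11312777-11313076, minus strand, and chr8:11312555-11312854, plus strand) are shown because both chains start from this stretch, and they share 78 bases. Capitals mark the letters of the CCAAT box and the GC box on either strand, and a match is only a description of letters:
Col4a1: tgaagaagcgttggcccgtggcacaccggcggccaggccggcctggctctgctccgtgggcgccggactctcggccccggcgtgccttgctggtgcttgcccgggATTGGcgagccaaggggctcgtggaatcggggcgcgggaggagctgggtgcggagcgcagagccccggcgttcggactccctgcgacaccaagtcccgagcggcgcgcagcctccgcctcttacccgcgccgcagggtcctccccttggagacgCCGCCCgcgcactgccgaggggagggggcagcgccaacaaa
Col4a2: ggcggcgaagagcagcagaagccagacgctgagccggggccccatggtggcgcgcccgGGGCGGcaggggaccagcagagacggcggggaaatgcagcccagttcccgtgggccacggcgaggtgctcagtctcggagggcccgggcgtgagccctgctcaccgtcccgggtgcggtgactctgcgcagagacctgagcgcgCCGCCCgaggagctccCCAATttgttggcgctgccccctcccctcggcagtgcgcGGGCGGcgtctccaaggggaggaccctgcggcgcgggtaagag
Col4a1 has 1 match to the CCAAT letters and 1 to the GC-box letters, and Col4a2 has 1 and 3. The GC-box match of Col4a1 and 1 of those of Col4a2 are the same 6 bases, which lie in the shared stretch.

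The other type IV chains were all below 1 FPKM on average and entered no test at this level. Col4a5, an X-linked chain that joins either α3(IV) and α4(IV) or α6(IV), had 0.422, 1.40, 0.800 and 2.00 FPKM in BgnKO on fructose and 0.228, 0.585, 0.679 and 0.686 FPKM in WT on fructose. On water it had 0.567, 0.943, 0.670 and 1.17 FPKM in BgnKO and 0.583, 0.569, 0.591 and 0.863 FPKM in WT. Its highest values stood in replicates 4 and 2 of BgnKO on fructose. Col4a3 (0.0551 to 0.622 FPKM), Col4a4 (0.0987 to 0.649 FPKM) and Col4a6 (0.147 to 0.900 FPKM) completed the class. Like the major pair, Col4a4 and Col4a3 start head to head, 71 bases apart on chromosome 1, and Col4a6 and Col4a5 1308 bases apart on the X chromosome.

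Among fibrillar chains, those of type I and type III stood higher in BgnKO in most libraries. Type I collagen, the main fibril of connective tissue, is built from Col1a1 and Col1a2, and type III, its partner in vessel walls, from Col3a1. Col1a2 had 1.55, 7.21, 5.64 and 11.99 FPKM in BgnKO on fructose, against 1.03, 4.32, 3.56 and 3.24 FPKM in WT on fructose. Col1a2 on water had 6.25, 6.28, 4.32 and 6.56 FPKM in BgnKO and 3.90, 1.69, 3.52 and 4.75 FPKM in WT. Replicate 1 of both fructose groups lay far below its group, and the remaining fructose libraries did not overlap between genotypes. Col1a1 had 0.759, 3.97, 4.02 and 6.07 FPKM in BgnKO on fructose and 0.926, 3.18, 3.12 and 2.99 FPKM in WT on fructose. For Col1a1 on water the values were 3.36, 4.41, 3.41 and 5.47 FPKM in BgnKO and 2.83, 1.47, 2.60 and 3.11 FPKM in WT, and all 4 BgnKO libraries lay above all 4 WT libraries. It was the 1 of 19 tested collagen genes that did so on water, beside 1.75% of all tested genes, and 0 of 19 were fully separated in the other direction, beside 2.26%. Col3a1, which was not selected by the rule for named genes and was added after its values were seen, had 0.193, 1.37, 1.66 and 2.28 FPKM in BgnKO on fructose and 0.168, 1.05, 0.889 and 0.622 FPKM in WT on fructose. Col3a1 on water had 0.971, 1.40, 1.03 and 1.98 FPKM in BgnKO and 0.795, 0.433, 0.608 and 1.20 FPKM in WT.

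Over both drinks the mean of BgnKO was 1.91 times that of WT for Col1a2, 1.56 times for Col1a1 and 1.89 times for Col3a1. None of the 3 passed with all 16 libraries, with log2 folds of 0.72 (SE 0.28, adjusted p = 0.157) for Col1a2, 0.44 (SE 0.25, adjusted p = 0.332) for Col1a1 and 0.42 (SE 0.19, adjusted p = 0.200) for Col3a1. In each of the 3 genes, 7 of 8 BgnKO libraries lay above the WT mean of their drink, and the exception was replicate 1 on fructose. With replicates 2 to 4 all 3 passed over both drinks, and the log2 fold was 0.81 (SE 0.20, adjusted p = 0.0242) for Col1a2, 0.57 (SE 0.14, adjusted p = 0.0222) for Col1a1 and 0.54 (SE 0.13, adjusted p = 0.0243) for Col3a1. Leaving out only replicate 1 of BgnKO on fructose gave 5 calls among the 19 over both drinks, where 8.39% of all tested genes were called, and 3 on fructose, where 7.43% were. Those calls were Col19a1, Col1a2 and Col3a1 on fructose, with Col1a1 and Col18a1 added over both drinks.

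**Figure D4:**
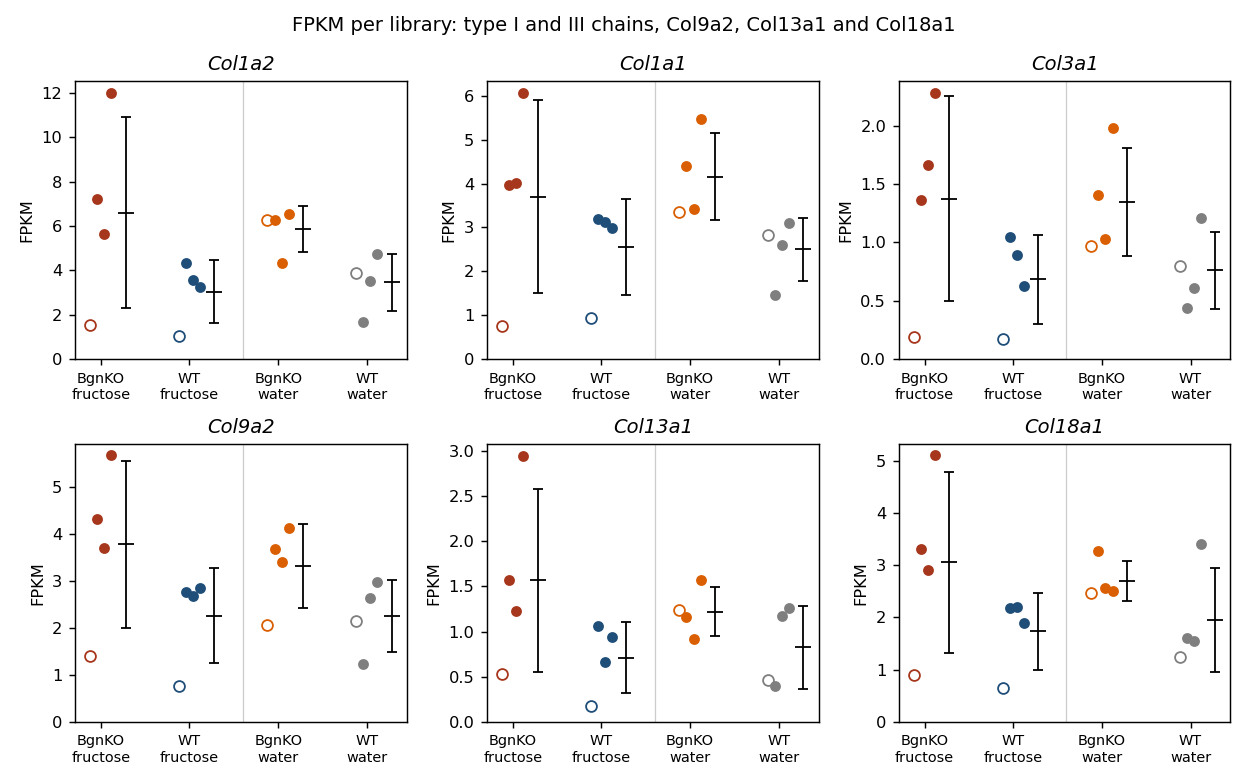
FPKM per library of Col1a2, Col1a1, Col3a1, Col9a2, Col13a1 and Col18a1 in BgnKO and WT, on fructose at left and on water at right. Open points are replicate 1, and bars are mean ± SD (n = 4). In replicates 2 to 4 on fructose, the BgnKO points of all 6 genes lie above the WT points, while replicate 1 of both fructose groups lies at the bottom of its group.

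Markers of meninges and fibroblasts, a list of 14 genes without collagens, varied along with these chains. They summed to 81.3, 300.3, 207 and 386 FPKM in BgnKO on fructose and 34.8, 180.1, 171 and 154 FPKM in WT on fructose. On water the sums were 179, 244, 193 and 213 FPKM in BgnKO and 132, 109.9, 167 and 213 FPKM in WT. The lowest sums stood in replicate 1 of both fructose groups and the highest in replicate 4 of BgnKO on fructose, the same libraries in which the summed type I and III chains were lowest and highest. In the library with the highest sum, Igf2 alone gave 233 of the 386 FPKM. All 12 tested markers had a fold above 0 in BgnKO over both drinks, with a median log2 fold of 0.43, and 0 passed in limma. An unadjusted p under 0.05 was reached by 6 of the 12, beside 2666 of the 12648 tested genes. None of the 14 was listed at 0 in all libraries. The part of meningeal tissue in the type I and III values was not tested. In the fit that also left out replicate 4 of BgnKO on fructose, Col1a1, Col1a2 and Col9a2 still passed over both drinks and Col3a1 did not, where 8.61% of all genes passed.

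**Figure D5:**
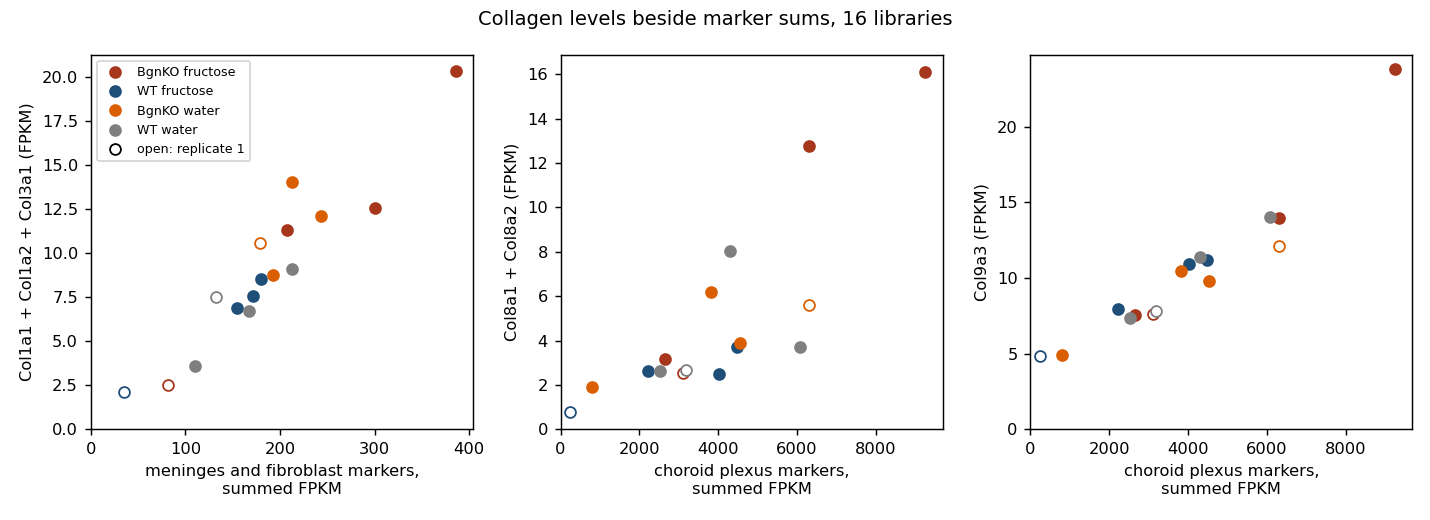
Collagen FPKM of each of the 16 libraries against the summed FPKM of marker lists. The left panel sets Col1a1, Col1a2 and Col3a1 together against meninges and fibroblast markers, and the other panels set Col8a1 with Col8a2, and Col9a3, against choroid plexus markers. Replicate 4 of BgnKO on fructose lies at the upper right of each panel and replicate 1 of WT on fructose at the lower left of each.

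The 2 fibrillar windows from RefSeq GRCm38.p6 are shown because both genes passed together in replicates 2 to 4. They are chr6:4505368-4505667 for Col1a2 and chr1:45311288-45311587 for Col3a1, both on the plus strand. Capitals mark the letters of the CCAAT, GC and TATA boxes on either strand:
Col1a2: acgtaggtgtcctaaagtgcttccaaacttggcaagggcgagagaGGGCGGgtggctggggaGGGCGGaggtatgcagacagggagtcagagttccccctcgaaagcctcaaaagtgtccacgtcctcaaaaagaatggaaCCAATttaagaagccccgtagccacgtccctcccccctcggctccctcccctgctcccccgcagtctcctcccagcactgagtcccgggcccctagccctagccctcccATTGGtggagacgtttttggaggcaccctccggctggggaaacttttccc
Col3a1: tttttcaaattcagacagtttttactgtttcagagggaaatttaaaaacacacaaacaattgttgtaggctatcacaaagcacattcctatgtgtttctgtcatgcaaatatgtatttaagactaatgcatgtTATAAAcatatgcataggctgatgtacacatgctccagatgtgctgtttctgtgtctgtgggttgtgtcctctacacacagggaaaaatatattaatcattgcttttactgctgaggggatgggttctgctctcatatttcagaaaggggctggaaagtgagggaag
Col1a2 has 2 matches to the CCAAT letters and 2 to the GC-box letters, and Col3a1 has 1 match to TATAAA. RefSeq windows were found for 33 of the 42 members.

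Of the minor fibrillar chains, Col11a2, a chain of the type XI fibrils that set fibril diameter, had 2.66, 2.43, 2.87 and 3.86 FPKM in BgnKO on fructose and 3.32, 2.86, 3.54 and 2.75 FPKM in WT on fructose. On water it had 2.08, 2.43, 2.09 and 3.74 FPKM in BgnKO and 2.23, 3.44, 3.08 and 2.05 FPKM in WT, and the groups overlapped on both drinks, with a log2 fold over both drinks of -0.06 (SE 0.11, adjusted p = 0.814). Col5a1, which starts the assembly of type I fibrils, ran opposite to the type I chains without passing, at -0.19 (SE 0.09, adjusted p = 0.248) over both drinks. The other 6 fibrillar chains were below 1 FPKM on average, from 0.0722 FPKM for Col24a1 to 0.942 FPKM for Col11a1.

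Type IX collagen is a FACIT molecule of the chains Col9a1, Col9a2 and Col9a3, known from the surface of cartilage fibrils. Here its chains differed in level and in the sign of their fold over both drinks. Col9a2 and Col9a3 did not pass with all 16 libraries, and the mean of Col9a1 was below the filter. Col9a3 had 7.64, 14.0, 7.54 and 23.8 FPKM in BgnKO on fructose and 4.83, 11.2, 10.9 and 7.92 FPKM in WT on fructose. On water it had 12.1, 10.5, 9.82 and 4.94 FPKM in BgnKO and 7.85, 14.0, 7.32 and 11.4 FPKM in WT, and the groups overlapped on both drinks. Col9a3 shares exonic bases with Tcfl5 on the opposite strand, and reads from these bases cannot be told apart without strand. Col9a2, added after its values were seen, had 1.40, 4.32, 3.70 and 5.67 FPKM in BgnKO on fructose and 0.753, 2.75, 2.68 and 2.84 FPKM in WT on fructose. Col9a2 on water had 2.06, 3.67, 3.39 and 4.13 FPKM in BgnKO and 2.15, 1.22, 2.63 and 2.98 FPKM in WT, with replicate 1 of BgnKO alone inside the WT range. The ratio of Col9a3 to Col9a2 ran from 1.20 in replicate 4 of BgnKO on water to 11.5 in replicate 2 of WT on water. The log2 fold over both drinks was 0.47 (SE 0.22, adjusted p = 0.228) for Col9a2 and 0.17 (SE 0.25, adjusted p = 0.745) for Col9a3. With replicates 2 to 4 Col9a2 passed at 0.56 (SE 0.13, adjusted p = 0.0216) over both drinks, and it was 1 of 2 tested collagen genes, with Col1a1, whose 6 BgnKO libraries all lay above the 6 WT libraries, beside 2.08% of all tested genes.

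Col9a1, the scarcest chain of type IX here, and Col6a4 are given because they passed when no filter on low FPKM was used, where 2.52% of 19036 genes passed on fructose and 3.78% over both drinks. Both were singled out after their values were seen. The share of genes below the filter whose groups do not overlap was not computed. Col9a1 had 0.0557, 0.0680, 0.0367 and 0.0470 FPKM in BgnKO on fructose and 0.177, 0.122, 0.136 and 0.0910 FPKM in WT on fructose. Col9a1 on water had 0.0655, 0.0670, 0.0426 and 0.0561 FPKM in BgnKO and 0.0709, 0.116, 0.104 and 0.0708 FPKM in WT, so all 8 BgnKO libraries lay below all 8 WT libraries. Its mean in BgnKO was 49.4% of WT over both drinks, and in the unfiltered limma fit the log2 fold was -0.07 (SE 0.01, adjusted p = 0.0125) over both drinks, a value that the pseudocount of 1 shrinks strongly at this level. Col9a1 and Col19a1 lie tail to tail on chromosome 1 with 9205 bases between them. Col6a4, a chain of mouse type VI collagen, had 0.169, 0.246, 0.371 and 0.402 FPKM in BgnKO on fructose, against 0.865, 0.622, 0.639 and 0.747 FPKM in WT on fructose, with no overlap. On water it had 0.360, 0.133, 0.457 and 0.333 FPKM in BgnKO and 0.271, 0.440, 0.340 and 0.402 FPKM in WT, which overlapped. Its unfiltered log2 fold was -0.41 (SE 0.08, adjusted p = 0.0154) on fructose and -0.05 (SE 0.08, adjusted p = 1.00) on water. Col6a4 shares exonic bases with 2 annotated genes on the opposite strand, so its reads cannot be told from theirs without strand.

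Type VI collagen forms beaded filaments of Col6a1, Col6a2 and a chain of the Col6a3 group, and binds biglycan. Col6a1 had 4.43, 5.31, 7.10 and 7.70 FPKM in BgnKO on fructose and 5.33, 6.997, 8.49 and 7.63 FPKM in WT on fructose. Col6a1 on water had 4.36, 6.45, 4.71 and 7.12 FPKM in BgnKO and 5.79, 6.13, 6.40 and 5.41 FPKM in WT. The groups overlapped on both drinks, and the log2 fold was -0.19 (SE 0.16, adjusted p = 0.523) on fructose and -0.08 (SE 0.16, adjusted p = 1.00) on water, where it was 0.01 (SE 0.14, adjusted p = 0.988) with replicates 2 to 4. Col6a2, at 1.22 to 4.29 FPKM over the 16 libraries, had a log2 fold of 0.03 (SE 0.17, adjusted p = 0.952) over both drinks. Col6a3 (0.198 to 1.42 FPKM), Col6a5 (0.0196 to 0.199 FPKM) and Col6a6 (0.0187 to 0.139 FPKM) were below 1 FPKM on average.

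The chains of type VIII, a short-chain network collagen best known from Descemet's membrane of the cornea, varied widely between libraries. Col8a1 had 0.924, 6.16, 1.03 and 7.64 FPKM in BgnKO on fructose, against 0.175, 1.17, 0.832 and 0.922 FPKM in WT on fructose. Col8a2 had 1.60, 6.60, 2.14 and 8.48 FPKM in BgnKO and 0.617, 2.52, 1.66 and 1.68 FPKM in WT on the same drink. Replicates 2 and 4 of BgnKO on fructose carried the difference, and the other BgnKO libraries on fructose lay inside the WT range. On water Col8a1 had 2.17, 3.08, 1.41 and 0.837 FPKM in BgnKO and 0.860, 1.01, 1.11 and 3.88 FPKM in WT. Col8a2 on water had 3.45, 3.09, 2.49 and 1.05 FPKM in BgnKO and 1.79, 2.71, 1.54 and 4.15 FPKM in WT, and the groups overlapped for both chains. The mean on fructose was 5.09 times that of WT for Col8a1 and 2.90 times for Col8a2, yet the log2 folds of 1.19 (SE 0.46, adjusted p = 0.152) and 0.96 (SE 0.39, adjusted p = 0.169) did not pass.

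Choroid plexus markers summed to 3109, 6312, 2652 and 9244 FPKM in BgnKO on fructose and 234, 4475, 4022 and 2219 FPKM in WT on fructose. On water they summed to 6309, 3828, 4545 and 809 FPKM in BgnKO and 3189, 6076, 2527 and 4304 FPKM in WT, with none of the 12 markers listed at 0 in all libraries. Ttr alone made up most of each sum, with 8924 FPKM in replicate 4 of BgnKO on fructose. Replicates 4 and 2 of BgnKO on fructose had the highest sums, and these libraries also held the highest Col8a1 and Col8a2. On water, replicate 1 of BgnKO and replicate 2 of WT had sums close to that of replicate 2 of BgnKO on fructose. Their Col8a1 was 2.17 and 1.01 FPKM, against 6.16 FPKM in that library. The sums were close because of Ttr, at 6127 and 5957 FPKM, against 6074 FPKM. Apart from Ttr and Kl, every marker was higher in that library than in these water libraries. Folr1 had 16.8 and 11.9 FPKM, against 30.1 FPKM, and Slc4a5 had 5.63 and 3.52 FPKM, against 9.51 FPKM. Kl had 62.7 and 32.0 FPKM, against 59.8 FPKM. Col9a3 too was highest in replicate 4 of BgnKO on fructose and lowest in replicate 1 of WT on fructose, the libraries with the highest and lowest marker sums. All 12 markers had a fold above 0 in BgnKO on fructose, with a median log2 fold of 1.09, and 0 were called in limma. An unadjusted p under 0.05 was reached by 3 of the 12, beside 2691 of the 12648 tested genes. The part of choroid plexus tissue in the type VIII and Col9a3 values was not tested.

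Col25a1, whose ectodomain is found in amyloid plaques, had 11.3, 10.4, 12.4 and 9.84 FPKM in BgnKO on fructose and 14.0, 13.5, 11.2 and 9.93 FPKM in WT on fructose. Col25a1 on water had 16.3, 14.6, 15.2 and 9.50 FPKM in BgnKO and 14.0, 11.6, 9.84 and 14.0 FPKM in WT, and the groups overlapped throughout, at 0.01 (SE 0.11, adjusted p = 0.978) over both drinks. Col13a1, a transmembrane collagen known from the neuromuscular junction, and Col18a1, a heparan sulfate proteoglycan of basement membranes and the source of endostatin, were added after their values were seen. Col13a1 had 0.527, 1.57, 1.23 and 2.94 FPKM in BgnKO on fructose and 0.173, 1.06, 0.662 and 0.935 FPKM in WT on fructose. On water Col13a1 had 1.23, 1.16, 0.921 and 1.57 FPKM in BgnKO and 0.459, 0.402, 1.17 and 1.26 FPKM in WT. Col18a1 had 0.894, 3.31, 2.91 and 5.11 FPKM in BgnKO on fructose, 0.647, 2.19, 2.20 and 1.90 FPKM in WT on fructose, 2.47, 3.27, 2.57 and 2.51 FPKM in BgnKO on water and 1.24, 1.60, 1.55 and 3.42 FPKM in WT on water. In replicates 2 to 4 on fructose both lay higher in every BgnKO library than in any WT library. They were 2 of 6 tested collagen genes of which this held on fructose, with Col1a1, Col1a2, Col3a1 and Col9a2, beside 14.8% of all tested genes. In the opposite direction it held for 3 of 19, beside 18.6%. Over both drinks the log2 fold from all libraries was 0.42 (SE 0.18, adjusted p = 0.180) for Col13a1 and 0.44 (SE 0.22, adjusted p = 0.260) for Col18a1. The transmembrane chain Col23a1 (0.13 (SE 0.13, adjusted p = 0.594) over both drinks) and the FACIT chain Col16a1 (0.16 (SE 0.11, adjusted p = 0.429) over both drinks) did not pass.

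The second question of the design is whether fructose alters collagen expression. In BgnKO 0 of 19 collagen genes passed for fructose against water, where 0% of all tested genes passed, and 1 collagen gene had an unadjusted p under 0.05. In WT 0 of 19 passed, against 0.00791% of all tested genes, and 0 had an unadjusted p under 0.05. Over both genotypes 0 of 19 passed, against 0.00791% of all tested genes, with 0 at an unadjusted p under 0.05. The interaction gave 0 of 19, against 0.00791% of all tested genes, with 0 at an unadjusted p under 0.05. Of the 12648 tested genes, 1630, 263, 1367 and 368 had an unadjusted p under 0.05 in these comparisons, in that order. The collagen gene with such a p in BgnKO was Col19a1, with 0.831 ± 0.154 FPKM on fructose and 1.09 ± 0.0549 FPKM on water (SD, n = 4 each), and the 4 fructose libraries all lay below the 4 water libraries. Its log2 fold was -0.20 (SE 0.09, adjusted p = 0.371) in BgnKO and -0.03 (SE 0.09, adjusted p = 1.00) in WT, with an interaction of -0.16 (SE 0.12, adjusted p = 0.999). It was the 1 of 19 that separated the drinks in this direction in BgnKO, beside 2.11% of all tested genes. In WT the smallest unadjusted p was that of Col4a2, which had 9.80 ± 0.367 FPKM on fructose and 8.01 ± 1.24 FPKM on water (SD, n = 4 each). The log2 fold in WT was 0.27 (SE 0.13, adjusted p = 1.00). Col4a2 in BgnKO had 6.997 ± 1.22 FPKM on fructose and 7.50 ± 1.40 FPKM on water (SD, n = 4 each), and the fold was -0.09 (SE 0.13, adjusted p = 0.825) on the log2 scale.

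The folds for fructose against water depended on replicate 1. Over both genotypes 17 of 19 collagen genes had a fold above 0 with replicates 2 to 4, against 9 of 19 with all 16 libraries, beside 53.8% and 54.2% of all tested genes. Their median log2 fold was 0.14 with replicates 2 to 4 and -0.0026 with all 16 libraries. In BgnKO 15 of 19 lay above 0 with replicates 2 to 4 (median 0.12) and 9 of 19 with all libraries (median -0.020), and in WT 13 of 19 (median 0.086) and 6 of 19 (median -0.033). Among the folds that changed sign were those of Col1a1, Col1a2 and Col3a1 in both genotypes. Col1a1 in BgnKO had a log2 fold of 0.06 (SE 0.19, adjusted p = 0.858) with replicates 2 to 4 and -0.28 (SE 0.35, adjusted p = 0.770) with all libraries. No collagen gene passed with replicates 2 to 4 in BgnKO (0% of all genes), in WT (0.0237%), over both genotypes (0.0158%) or in the interaction (0.0158%). An unadjusted p under 0.05 was then reached by Col19a1, lower on fructose, and Col8a2, higher, in BgnKO, by Col4a2 and Col6a1, both higher, in WT and by Col6a1, higher, over both genotypes. In the interaction Col4a2, at -0.28 (SE 0.12, adjusted p = 0.629), and Col8a2, at 1.30 (SE 0.55, adjusted p = 0.629), reached it. Of all 12647 genes tested in replicates 2 to 4, 2410 reached it in BgnKO, 486 in WT, 1661 over both genotypes and 966 in the interaction.

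Genes that make, bind and degrade collagen were described from lists. Of the list for collagen synthesis and crosslinking, 23 of 27 genes in the table were tested and 0 passed in BgnKO against WT on fructose, on water or over both drinks. Over both drinks 11 had an unadjusted p under 0.05, beside 2666 of the 12648 tested genes, and the median log2 fold was 0.13. Bmp1, a protease that trims procollagen, had a log2 fold of -0.37 (SE 0.10, adjusted p = 0.0520), and P4hb, a subunit of the prolyl hydroxylase, of 0.15 (SE 0.04, adjusted p = 0.0574). Among 7 tested collagen receptors Itgb1, the β1 subunit shared by the collagen-binding integrins, rose on fructose, where 3.76% of all tested genes were called. Itgb1 had 20.7, 21.4, 20.5 and 26.2 FPKM in BgnKO on fructose and 17.3, 16.1, 15.8 and 15.6 FPKM in WT on fructose, with a log2 fold of 0.43 (SE 0.10, adjusted p = 0.0292). These groups did not overlap, beside 4.61% of all tested genes in this direction. On water Itgb1 had 23.1, 19.0, 18.1 and 21.5 FPKM in BgnKO and 20.2, 15.1, 16.3 and 18.1 FPKM in WT, which overlapped. Over both drinks 1 of the 7 receptors was called higher, where 4.99% of all tested genes were called. The other 6 receptors, among them Ddr2, a tyrosine kinase activated by fibrillar collagen (0.34 (SE 0.17, adjusted p = 0.275) over both drinks), did not pass.

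Of 6 tested turnover genes 2 rose over both drinks, where 4.99% of all tested genes were called. Ctsk, a protease that cleaves the collagen helix, had 1.13, 1.78, 1.33 and 2.37 FPKM in BgnKO on fructose, 0.773, 1.10, 0.747 and 0.891 FPKM in WT on fructose, 1.65, 1.37, 1.06 and 1.27 FPKM in BgnKO on water and 1.02, 0.678, 0.903 and 0.689 FPKM in WT on water, a log2 fold over both drinks of 0.42 (SE 0.09, adjusted p = 0.0154). Timp4, an inhibitor of matrix metalloproteinases, had 30.9, 20.7, 31.1 and 32.2 FPKM in BgnKO on fructose and 21.0, 17.2, 20.9 and 19.7 FPKM in WT on fructose. On water Timp4 had 22.7, 17.3, 19.5 and 26.2 FPKM in BgnKO and 19.8, 18.5, 18.1 and 16.4 FPKM in WT. The groups overlapped on both drinks, and the log2 fold over both drinks was 0.36 (SE 0.10, adjusted p = 0.0452). Of 13 tested basement membrane genes that are not collagens, 1 passed on fructose, against 3.76% of all tested genes, and over both drinks, against 4.99%. This was Agrn, the heparan sulfate proteoglycan agrin, which fell. Agrn had 13.2, 12.3, 14.1 and 18.9 FPKM in BgnKO on fructose and 28.5, 24.2, 25.6 and 23.9 FPKM in WT on fructose, with a log2 fold of -0.78 (SE 0.13, adjusted p = 0.00374). Agrn on water had 19.7, 14.4, 20.0 and 16.2 FPKM in BgnKO and 25.3, 25.2, 22.0 and 21.1 FPKM in WT. The laminin and nidogen genes of the list did not pass, and 11 of the 13 genes had a fold above 0 over both drinks. Astrocyte markers, of which 4 of 8 were called higher in BgnKO on fructose beside 3.76% of all tested genes called in either direction, summed to 1002 to 1339 FPKM in BgnKO on fructose and 862 to 905 FPKM in WT on fructose, and their part in these values was not tested.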

How the data were processed

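The labels' protocols give poly-A selection of total RNA, random hexamer priming and demultiplexing with CASAVA 1.8.2. TopHat, Bowtie, Cufflinks, Cuffdiff and the build mm10 are named in the submitters' processing notes; versions, annotation, strand and scaling are not known here. The authors deposited FPKM for each of the 16 libraries, so depth is unknown and no counting interval is given.

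FPKM of loci with the same name were summed. Genes averaging 1 FPKM or more across libraries were kept (12648), and log2(FPKM + 1) was fitted in limma 3.58.1 (R 4.3.3) with 4 group means, no block and a mean-variance trend. Benjamini-Hochberg adjustment ran within each of 7 comparisons, with a threshold of 0.05. SD refers to FPKM and SE to the moderated log2 fold. Percentages of tested genes beside a count are from the same fit. The fit was checked on simulated data.

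Genes given in full were those called in any comparison, the 3 of highest mean in each class and the 3 of smallest unadjusted p in each comparison; others are marked as added. The members and lists were chosen with earlier results of these data known. Positions came from GENCODE vM21 (GRCm38) and promoters from RefSeq GRCm38.p6, matched by symbol. Alternatives tried were a pseudocount of 0.1, no filter or a filter at 5 FPKM, median-ratio and quantile rescaling, a replicate block, a term for replicate 1, the top locus of a name only, no trend, and leaving out libraries. Pairing by replicate number was checked by correlating how far libraries lay from the mean of their group. For fructose against water all 4 pairs were over 0.1 (0.197 to 0.612 in BgnKO and 0.118 to 0.699 in WT), but with replicates 2 to 4 alone the range was -0.04 to 0.31 in BgnKO and 0.0032 to 0.135 in WT. For BgnKO against WT the range was 0.087 to 0.75 on fructose and -0.04 to 0.69 on water. With replicates 2 to 4 alone it was -0.256 to 0.205 on fructose and -0.269 to -0.107 on water. The check does not settle whether libraries are paired. The labels do not say what a replicate number shares, so the main fit has no block and the block is an alternative.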

Additional observations from a re-analysis of the deposited data

Results flagged for a closer look

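In 18 collagen genes and 4 groups, 72 groups of 4 libraries in all, 10 held a library whose gap to its nearest neighbour, as a share of the range of the group, was over Dixon's limit for 4 values. For independent groups of normally distributed values, chance alone marks about 1 group in 20. The genes here share the same 16 libraries, and some were added after their values were seen. The count therefore cannot be tested against that rate. Col19a1 stood low in replicate 4 of BgnKO on fructose (0.600 FPKM, others 0.896 to 0.927) and in replicate 1 of BgnKO on water (1.01 FPKM, others 1.11 to 1.13). Col4a2 stood low in replicate 1 of BgnKO on fructose (5.17 FPKM, others 7.40 to 7.74). Replicate 1 of WT on fructose stood low for Col1a1 (0.926 FPKM, others 2.99 to 3.18) and Col9a2 (0.753 FPKM, others 2.68 to 2.84). Col1a2 was low in replicate 3 of BgnKO on water (4.32 FPKM, others 6.25 to 6.56). Replicate 4 of WT on water stood high for Col4a5 (0.863 FPKM, others 0.569 to 0.591), Col8a1 (3.88 FPKM, others 0.860 to 1.11) and Col18a1 (3.42 FPKM, others 1.24 to 1.60). Col18a1 was also high in replicate 2 of BgnKO on water (3.27 FPKM, others 2.47 to 2.57).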

How the results depend on the processing

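None of the 21 log2 folds of collagen genes chosen by the rule for named genes changed sign under any alternative run, but other values did. With no filter the medians of the fibrillar chains (-0.017) and type IV chains (0.064) over both drinks and of all collagen genes on fructose (-0.0067) changed sign. With replicates 2 to 4 the folds of 0 of 19 tested collagen genes changed sign for BgnKO against WT on fructose and over both drinks, 4 on water, 6 for fructose against water in BgnKO, 7 in WT, 8 over both genotypes and 3 in the interaction. The counts of called collagen genes on water, for fructose against water and for the interaction were 0 under every alternative. On fructose the count of 1 became 3 with no filter, 0 with a filter at 5 FPKM (Col19a1 lies below it), 3 with a term for replicate 1, 2 with the replicate block and 0 with replicates 2 to 4 when replicate 4 of BgnKO on fructose was also left out. Over both drinks the count of 1 became 3, 0, 3, 4 and 3 under the same alternatives in the same order. The share of all tested genes called was 2.52, 3.47, 17.3, 19.6 and 2.67% on fructose and 3.78, 4.59, 18.0, 19.8 and 8.61% over both drinks in that order. Leaving out libraries gave 0 to 3 on fructose and 1 to 6 over both drinks, the highest being 3 without replicate 1 of BgnKO on fructose and 6 without replicate 1 of every group. The block added Col4a2 (adjusted p = 0.00713) on fructose and Col4a2, Col9a2 and Col13a1 over both drinks. It moved 0 calls for fructose against water. The term for replicate 1 added Col4a1 and Col4a2 on fructose and Col4a2 and Col9a2 over both drinks. The cause of these moves was not tested. A pseudocount of 0.1, both rescalings, the top locus only and no trend each left 1 call, Col19a1. Genes near 1 FPKM are limited by an unknown depth.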

Other observations

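In 2 entries of the table a collagen name is joined with another gene, and they were not counted among the members. The entry that joins Arfgap1 with Col20a1 had 24.8 to 32.6 FPKM in BgnKO on fructose, 32.3 to 34.6 FPKM in WT on fructose, 27.2 to 31.1 FPKM in BgnKO on water and 31.3 to 34.6 FPKM in WT on water. The entry that joins Col7a1 with Mir711 had 0.0514 to 0.0972 FPKM in BgnKO on fructose, 0.107 to 0.197 FPKM in WT on fructose, 0.0598 to 0.127 FPKM in BgnKO on water and 0.0586 to 0.166 FPKM in WT on water. Neither value can be assigned to the collagen chain alone.

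The ratio of Col1a2 to Col1a1, the chains of type I collagen, was 2.05, 1.81, 1.40 and 1.97 in BgnKO on fructose and 1.12, 1.36, 1.14 and 1.08 in WT on fructose. On water it was 1.86, 1.42, 1.27 and 1.20 in BgnKO and 1.38, 1.15, 1.36 and 1.53 in WT. The ratio was thus higher in all 4 BgnKO libraries than in all 4 WT libraries on fructose, and the groups overlapped on water. It was singled out after its values were seen and was not tested. The share of all gene pairs whose ratio separates these groups was not computed.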
